A study of Mus musculus with 16 samples.

Results

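Neutrophil granule and lineage transcripts were followed through 16 RNA libraries of mouse bone marrow macrophages. The members are 10 of the 54532 genes in the deposited tables, taken by gene symbol: the secondary granule genes Ltf, Lcn2, Ngp and Camp, the primary granule genes Mpo, Elane and Prtn3, the cytosolic pair S100a8 and S100a9, and the receptor gene Csf3r. All 10 passed the filter on low counts, which left 15469 genes for testing. The mice were wild-type C57BL/6, aged 2 to 3 months, and the marrow was taken from their tibiae. Marrow cells were kept for 24 h with 12 ng/ml CSF-1, the growth factor that macrophages need, and the non-adherent cells were then kept for 48 h with 120 ng/ml CSF-1, with 15% serum in both steps. After a single passage they were plated on fibronectin (coated at 10 µg/ml), a matrix protein that integrins bind, or on normal dishes, and antibody at 10 µg/ml was present for 24 h. The antibody was either one that neutralizes ITGAV, the αV integrin subunit, or an IgG. There were 4 libraries each of anti-ITGAV on fibronectin, IgG on fibronectin, anti-ITGAV on uncoated dishes and IgG on uncoated dishes, and no group was left without antibody. No label says whether the libraries of a group came from separate mice or cultures, so p-values measure the spread between these libraries, which may be technical.

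Neutrophils store their antimicrobial proteins in granules that are filled in sequence as the cell matures. Primary (azurophil) granules receive myeloperoxidase and serine proteases, whose genes are active in promyelocytes, and secondary (specific) granules receive lactoferrin and its companions, whose genes become active later and depend on the transcription factor C/EBPε. S100A8 and S100A9 form calprotectin, an abundant cytosolic complex of neutrophils and monocytes, and Csf3r encodes the receptor for G-CSF, the growth factor of granulocytes. Activated macrophages can also make lipocalin-2 and the S100 proteins, so these transcripts do not by themselves mark a neutrophil.

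Promoters are shown for granule genes of both classes because the results compare secondary with primary granule genes. RefSeq promoter windows (build GRCm38.p6, 250 bases before to 50 after the start) were found for all 10 members. The windows of 5 granule genes follow, 5′ to 3′ on the gene's own strand, with capitals at matches on either strand to TTGCNNAA, a C/EBP-type motif, or to GAGGAA, a PU.1-type motif:
Ltf, chr9:111019042-111019341, plus strand: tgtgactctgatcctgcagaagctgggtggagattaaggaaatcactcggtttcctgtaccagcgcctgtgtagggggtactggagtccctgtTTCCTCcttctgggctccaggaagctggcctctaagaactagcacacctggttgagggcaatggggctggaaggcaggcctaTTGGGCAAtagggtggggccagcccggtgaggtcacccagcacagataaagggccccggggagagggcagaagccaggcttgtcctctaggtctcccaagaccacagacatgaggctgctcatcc
Lcn2, chr2:32387690-32387989, minus strand: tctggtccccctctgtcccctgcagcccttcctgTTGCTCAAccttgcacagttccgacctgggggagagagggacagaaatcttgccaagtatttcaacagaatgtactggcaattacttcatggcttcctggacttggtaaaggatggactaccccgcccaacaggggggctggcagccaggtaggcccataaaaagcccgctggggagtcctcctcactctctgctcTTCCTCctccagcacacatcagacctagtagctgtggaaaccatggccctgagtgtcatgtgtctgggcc
Ngp, chr9:110419558-110419857, plus strand: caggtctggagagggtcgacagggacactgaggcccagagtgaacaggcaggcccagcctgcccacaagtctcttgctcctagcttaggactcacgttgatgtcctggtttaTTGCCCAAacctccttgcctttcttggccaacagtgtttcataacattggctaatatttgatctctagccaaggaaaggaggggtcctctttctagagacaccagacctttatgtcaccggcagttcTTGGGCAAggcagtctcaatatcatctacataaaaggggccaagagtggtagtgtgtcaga
Camp, chr9:109849407-109849706, minus strand: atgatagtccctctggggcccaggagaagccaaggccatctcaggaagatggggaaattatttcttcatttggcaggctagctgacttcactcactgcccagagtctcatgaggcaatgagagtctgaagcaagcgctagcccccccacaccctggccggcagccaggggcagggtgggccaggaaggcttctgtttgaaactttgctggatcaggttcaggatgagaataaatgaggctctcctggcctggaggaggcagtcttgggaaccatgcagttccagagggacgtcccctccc
Mpo, chr11:87793534-87793833, plus strand: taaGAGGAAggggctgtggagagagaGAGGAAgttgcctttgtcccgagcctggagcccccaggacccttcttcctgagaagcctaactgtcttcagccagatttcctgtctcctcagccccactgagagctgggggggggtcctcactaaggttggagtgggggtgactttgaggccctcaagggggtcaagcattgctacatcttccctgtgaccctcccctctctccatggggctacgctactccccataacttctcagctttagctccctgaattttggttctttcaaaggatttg

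The C/EBP-type motif was present in 3 of the 4 secondary granule windows and in 0 of the 3 primary granule windows. It began 75 bases before the start in Ltf, 216 in Lcn2, and 138 and 11 in Ngp, and it was also present in S100a9, 236 bases before the start. Across all 32851 promoter windows, 10.8% held it. The PU.1-type motif was present in all 3 primary granule windows, in Ltf and Lcn2, and in S100a8 and Csf3r, against 28.3% of all windows. In all, 8 short motifs were searched, on both strands. An NF-κB-type motif was present in 3 of the 10 members (20.7% of all windows). The letters TATAAA were in 2 members (13.6% of windows). A GATA-type motif, AGATAA, was in 2 members (11.2%). A RUNX-type motif, TGTGGT, was in 2 members (16.8%). A STAT-type motif, TTCNNNGAA, was in 0 members (8.3%). The G-rich letters GGGGAA were in 2 members (23.3%). These matches are letters in a window and do not show binding.

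In the deposited gene positions (GRCm38), Camp, Ngp and Ltf lie in that order on chromosome 9, at 109847379 to 109849617 (minus strand), 110419747 to 110423012 (plus) and 111019271 to 111042767 (plus), with gaps of 570.1 kb between Camp and Ngp and 596.3 kb between Ngp and Ltf. Prtn3 and Elane are neighbours on chromosome 10, 3.1 kb apart, and S100a8 and S100a9 are 22.6 kb apart on chromosome 3. Lcn2 is on chromosome 2 (32384633 to 32388252, minus strand), Mpo on chromosome 11 (87793581 to 87804413, plus) and Csf3r on chromosome 4 (126024550 to 126044440, plus). Prtn3 overlaps Plppr3 on the opposite strand, and Plppr3 held 1916 counts over the 16 libraries against 3596 for Prtn3. Since the strand setting of the counting is not given in the sources used here, Prtn3 values may include reads of Plppr3.

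The markers of the labelled cell type were present. The 15 macrophage genes examined, among them Csf1r, Adgre1 and Cd68, summed to 33894 to 40285 CPM (counts scaled to a common library total) in every library. Csf1r averaged 2373 CPM, Adgre1 1494 and Cd68 1245. Most of the sum was Lyz2, a lysozyme gene of all myeloid cells. It averaged 23393 CPM, or 17536 FPKM (the deposited level per gene length and library size). The members were a small part of the RNA, at 0.0238% to 0.0502% of each library's counts. Total counts ranged from 27995000 to 43413600, and every member had at least 44 counts in every library. In bulk RNA, fewer granulocyte precursors in a dish and less RNA per cell cannot be told apart.

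One library stood apart, the third of the anti-ITGAV group on fibronectin. Its mitochondrial share was 3.67%, where the other 15 libraries had 1.30% to 1.60%, and its mean correlation with the other libraries was 0.965 against 0.976 to 0.983. Its counts also leaned towards transcripts of low GC content, with a rank correlation of -0.69 between deviation and GC content, against -0.29 to 0.54 elsewhere. Among the members, 6 were below and 3 were above the range of the other 3 libraries of its group, and only Ltf was within it. S100a8, at 44.5% GC, had 141 CPM there against a mean of 44.9 in the other 3, whereas Elane, at 57.4% GC, had 1.18 CPM against 3.79. Over the 10 members the log2 departure of this library and the GC content of the transcript had a Pearson r of -0.90, a description across genes of 1 library. For the members, where leaving it out changed a call or moved a value by much, the value without it is given too. Values of single genes outside the members are given with all libraries only. The part of GC content in these values was not tested.

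**Figure D1:**
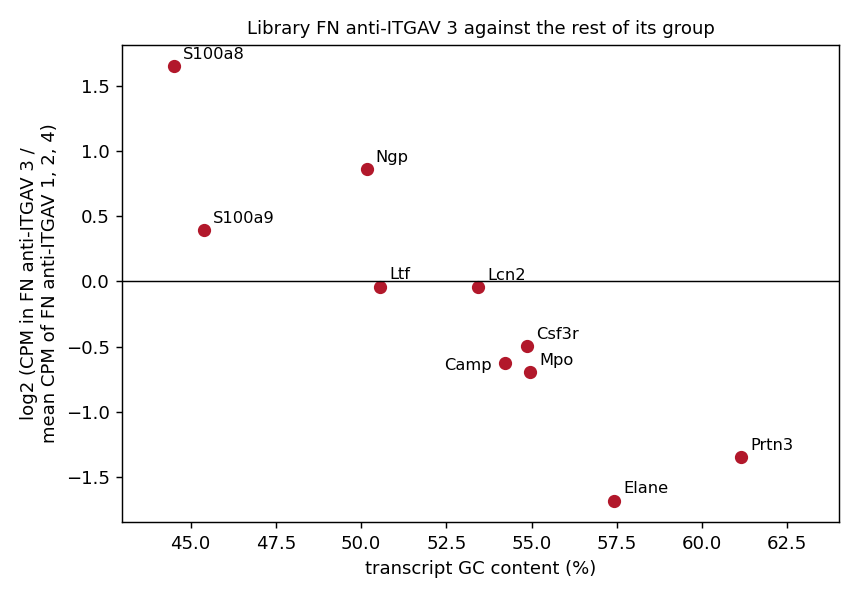
Transcript GC content (x axis, percent) against the log2 ratio of CPM in the third anti-ITGAV library on fibronectin to the mean of the other 3 libraries of its group (y axis), 1 point per member. S100a8 lies highest at 1.65 and Elane lowest at -1.68, and the points fall from left to right with r of -0.90.

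Per unit length, S100a9 and S100a8 were the most abundant members and the primary granule genes the least. With IgG on uncoated dishes S100a9 averaged 230.5 ± 15.5 FPKM, S100a8 122.6 ± 8.75, Ngp 82.8 ± 2.76 and Ltf 18.9 ± 0.931 (SD, n = 4), and the libraries of these 4 genes did not overlap. Csf3r at 11.5 ± 1.14, Lcn2 at 10.7 ± 0.546 and Camp at 9.97 ± 0.995 FPKM followed, and their ranges overlapped. Elane averaged 6.53 ± 0.502 FPKM, above Prtn3 at 4.16 ± 0.177 and Mpo at 4.11 ± 0.454, which overlapped. The same 4 genes had the highest means in all 4 groups, but with anti-ITGAV on uncoated dishes Ltf (11.9 to 14.2 FPKM) overlapped Csf3r (11.4 to 13.1 FPKM). With anti-ITGAV on fibronectin, S100a9 averaged 126.3 ± 20.3, S100a8 98.2 ± 69.2, Ngp 42.6 ± 14.8 and Ltf 8.86 ± 0.331 FPKM. Here S100a8 ranged from 60.9 to 201.9 FPKM, so it overlapped both S100a9 and Ngp.

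Anti-ITGAV on fibronectin lowered lactoferrin and lipocalin-2 transcripts, and the other secondary granule genes had lower values without passing the test. Ltf, which encodes iron-binding lactoferrin, had 33.0, 30.7, 30.3 and 29.8 CPM in the anti-ITGAV libraries, against 54.7, 73.1, 69.5 and 50.6 CPM in the IgG libraries. Every anti-ITGAV library lay below every IgG library. The log2 change was -1.002 ± 0.11 (SE), which is 50.1% lower, with an adjusted p of 0.000992 by edgeR's quasi-likelihood test. Lcn2, which encodes a protein that traps bacterial siderophores, had 13.6, 13.9, 13.6 and 14.4 CPM in the anti-ITGAV libraries, against 21.9, 25.4, 29.2 and 21.8 CPM in the IgG libraries. The groups again did not overlap, and the log2 change was -0.83 ± 0.11 with an adjusted p of 0.00436 by edgeR. These 2 genes were the only ones called in the comparison, so that 2 of 10 members were called lower against 0.0129% of all genes tested, and they ranked first and second of all genes by p. Both calls were lost when the 8 libraries of the comparison were fitted alone, where the log2 changes were -0.9999 for Ltf (edgeR adjusted p 0.294) and -0.82 for Lcn2 (0.540). Lcn2 was also lost without the first anti-ITGAV library (-0.81, edgeR adjusted p 0.0550) and with a GC offset (-0.65, 0.142).

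Camp, which encodes the antimicrobial peptide precursor cathelicidin, had 3.79, 4.01, 2.29 and 2.77 CPM in the anti-ITGAV libraries on fibronectin, against 5.66, 7.69, 7.16 and 5.43 CPM in the IgG libraries. The groups did not overlap, yet the log2 change of -1.01 ± 0.19 had an adjusted p of 0.131 by edgeR. DESeq2 called Camp, with an adjusted p of 0.00123, the only 1 of 14 other settings to do so. Of the 16 fits that left out 1 library, 0 called it. Ngp, a mouse granule protein related to the cathelicidins, had 45.6, 41.8, 79.3 and 43.9 CPM in the anti-ITGAV libraries, against 75.9, 105, 97.5 and 77.5 CPM in the IgG libraries. Only the third anti-ITGAV library reached the IgG range. Its log2 change was -0.75 ± 0.17 with an adjusted p of 0.337 over all libraries by edgeR, and -1.02 ± 0.11 with an adjusted p of 0.000359 without that library. With all libraries it was called by DESeq2 (adjusted p 0.0494), by voom (5.39e-05) and by edgeR with the GC offset (0.0379). Including the GC offset without the third library, 4 of the 14 other settings called it.

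Of the cytosolic pair, S100a9 was below the IgG range in every anti-ITGAV library and S100a8 in all but library 3. S100a9 had 64.2, 64.8, 81.1 and 56.7 CPM with anti-ITGAV on fibronectin, against 103, 102, 115 and 89.5 CPM with IgG. The groups did not overlap, and the log2 change was -0.62 ± 0.11 with an adjusted p of 0.131 by edgeR. It was called by DESeq2 (adjusted p 0.00282), by voom (0.000311), and by edgeR with the replicate block (0.0415), the GC offset (0.0352) or no filter (0.0336). Including the GC offset without the third library, 6 of 14 other settings called it. S100a8 had 48.0, 43.9, 141 and 42.8 CPM with anti-ITGAV, against 73.8, 76.4, 74.7 and 59.1 CPM with IgG, so 3 anti-ITGAV libraries lay below all IgG libraries and the third lay above them all. Its log2 change of -0.04 ± 0.28 (edgeR adjusted p 0.960) became -0.66 ± 0.09 (edgeR adjusted p 0.00665) without the third library, and that of S100a9 became -0.72 ± 0.09 (0.00295). Without it, 5 genes were called in the comparison and all 5 were members, Ltf, Lcn2, Ngp, S100a8 and S100a9. The FPKM ratio of S100a8 to S100a9 was 1.30 in the third anti-ITGAV library and 0.485 to 0.603 in the other 15 libraries.

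The primary granule genes did not pass the test on fibronectin. Mpo, the myeloperoxidase gene, had 9.85, 10.6, 6.22 and 9.81 CPM with anti-ITGAV, against 10.4, 12.6, 12.5 and 11.2 CPM with IgG. One anti-ITGAV library reached the IgG range, and the log2 change of -0.36 ± 0.15 had an adjusted p of 0.721 by edgeR. Elane, the neutrophil elastase gene, had 3.51, 3.49, 1.18 and 4.37 CPM with anti-ITGAV, against 4.14, 6.08, 5.63 and 2.53 CPM with IgG, with overlapping groups and a log2 change of -0.56 ± 0.30. Prtn3, the proteinase 3 gene, had 5.59, 5.19, 1.88 and 3.57 CPM with anti-ITGAV, against 4.75, 8.05, 7.21 and 4.94 CPM with IgG, also overlapping, and a log2 change of -0.62 ± 0.25. Their lowest value was in each case in the third anti-ITGAV library, and without it the log2 changes were -0.21, -0.28 and -0.38, with adjusted p at 1.00 for each by edgeR. Csf3r had 28.01, 28.9, 19.9 and 27.5 CPM with anti-ITGAV, against 23.4, 25.1, 30.9 and 21.7 CPM with IgG, and a log2 change of 0.04 ± 0.13 (edgeR adjusted p 0.910).

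Over the members the antibody on fibronectin gave a median log2 change of -0.62, against 0.00 over all genes tested. At an unadjusted p under 0.05, 7 of 10 members were lower, against 2.06% of all genes, and the groups did not overlap, in the lower direction, for 4 of 10 against 1.37%. The members were chosen with earlier results of these data known. Member counts beside shares of all genes, here and in the other comparisons, are therefore descriptions and not tests. The median was -0.91 over the 4 secondary granule genes and -0.56 over the 3 primary granule genes, and without the third anti-ITGAV library -0.93 and -0.28.

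**Figure D2:**
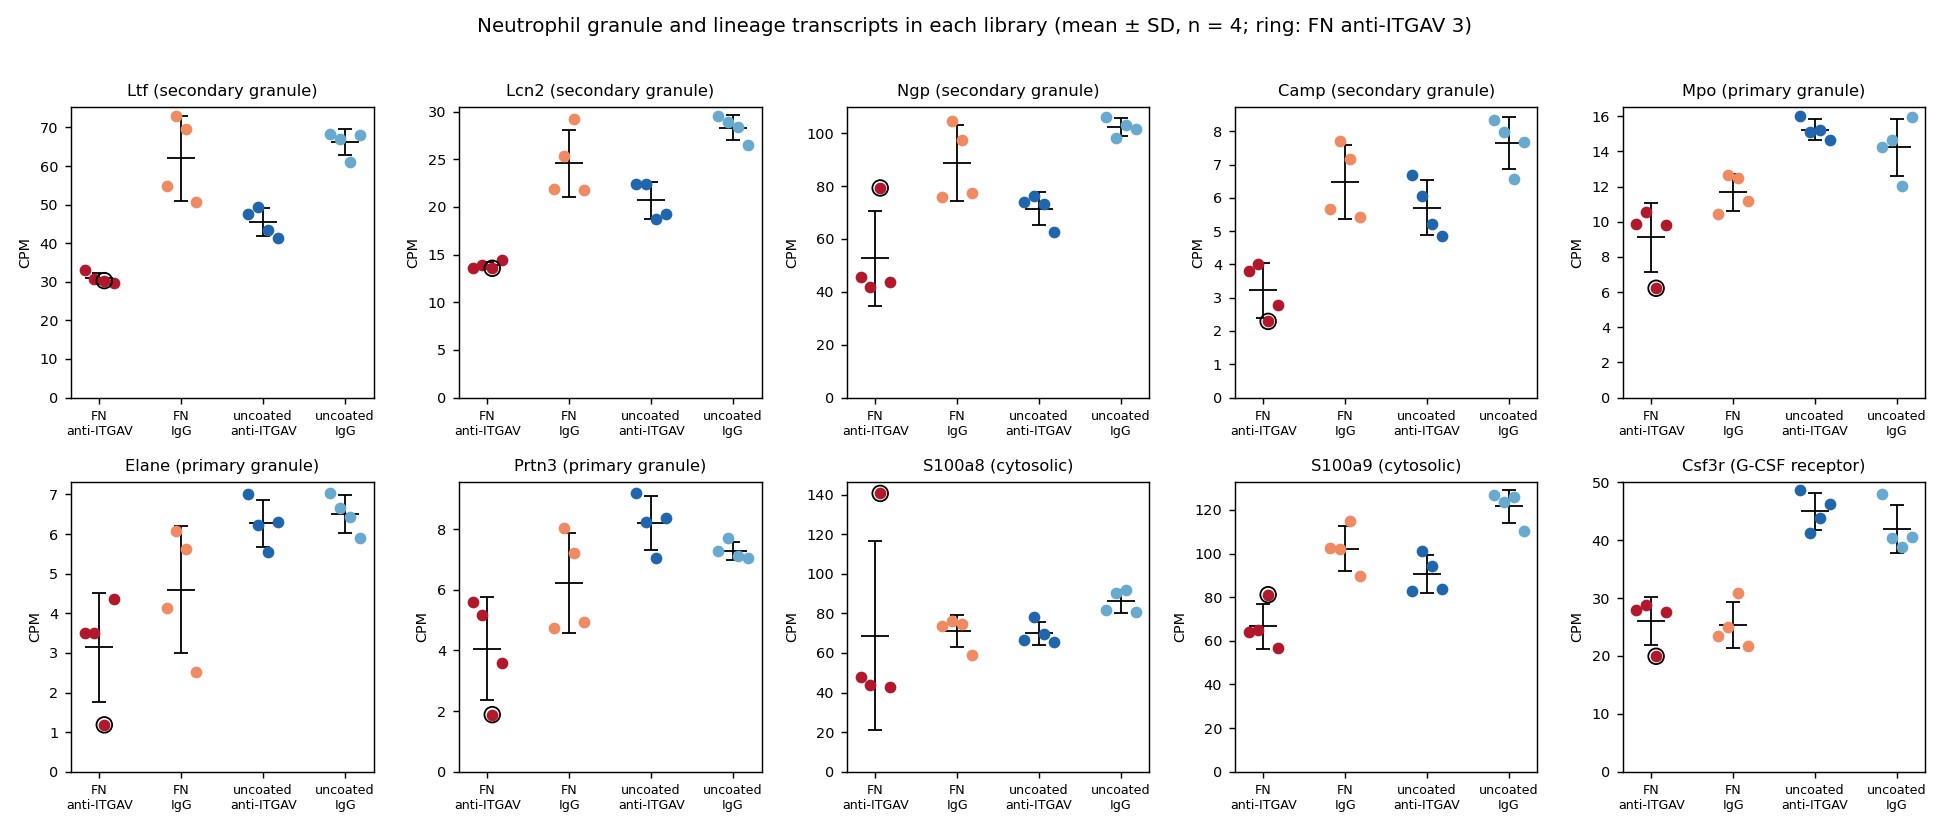
CPM of each member (y axis, from 0, its own scale per panel) in every library, by group, with mean and SD (n = 4) in black and a ring around the third anti-ITGAV library on fibronectin. Ltf and Lcn2 in the anti-ITGAV libraries on fibronectin lie below all other libraries, at 29.8 to 33.0 and 13.6 to 14.4 CPM, and the ringed library is high in S100a8 and Ngp and low in Mpo, Elane and Prtn3.

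On uncoated dishes the antibody gave lower values of the secondary granule and S100 genes, and no member was called. Ltf had 47.5, 49.3, 43.5 and 41.4 CPM with anti-ITGAV, against 68.3, 67.1, 61.1 and 68.1 CPM with IgG, without overlap. Its log2 change was -0.54 ± 0.11 with an adjusted p of 0.321 by edgeR. Lcn2 had 22.4, 22.4, 18.7 and 19.3 CPM with anti-ITGAV, against 29.6, 28.9, 28.3 and 26.5 CPM with IgG, also without overlap, and a log2 change of -0.45 ± 0.11 (edgeR adjusted p 0.495). Ngp had 73.8, 76.5, 73.4 and 62.5 CPM with anti-ITGAV, against 106, 98.4, 103 and 102 CPM with IgG, and S100a9 had 82.8, 101, 94.2 and 83.8 CPM against 127, 124, 126 and 110 CPM. In both the groups did not overlap, and the log2 changes were -0.52 ± 0.17 and -0.43 ± 0.11. Camp (-0.43 ± 0.18) overlapped, while S100a8 (-0.30 ± 0.28) did not.

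The primary granule members Mpo, Elane and Prtn3 lay near the IgG level on uncoated dishes. Mpo had 16.02, 15.1, 15.2 and 14.6 CPM with anti-ITGAV, against 14.3, 14.6, 12.0 and 15.97 CPM with IgG. The log2 changes were 0.10 ± 0.14 for Mpo, -0.05 ± 0.29 for Elane and 0.17 ± 0.25 for Prtn3, with 95% intervals of -0.20 to 0.40, -0.66 to 0.56 and -0.35 to 0.69. The Elane interval includes the -0.54 of Ltf. In this comparison 0 members were called by edgeR against 0.0129% of all genes, 5 were lower at an unadjusted p under 0.05 against 1.21%, and 5 did not overlap in the lower direction against 0.912%. DESeq2 called Ltf (adjusted p 0.0104) and Lcn2 (0.0483). Of 14 other settings, DESeq2 among them, 3 called Ltf, 2 called Lcn2, 2 called Ngp and 1 called S100a9.

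Averaged over both coatings the antibody lowered 4 members by edgeR, against 0.0323% of all genes called lower. Ltf changed by -0.77 ± 0.08 (log2, adjusted p 0.000263), Lcn2 by -0.64 ± 0.08 (0.00100), S100a9 by -0.52 ± 0.08 (0.0113) and Camp by -0.72 ± 0.13 (0.0471). Only 1 further gene was called lower, Prss34, a mast cell and basophil protease. Ngp missed the threshold at -0.64 ± 0.12 (edgeR adjusted p 0.0517), and without the third anti-ITGAV library on fibronectin it changed by -0.77 ± 0.07 (6.46e-05). Camp was called in 4 of the 16 fits that left out 1 library, with adjusted p from 0.0286 to 0.137, and S100a9 in 13 of 16, missing without uncoated IgG library 2 (0.0501) or 3 (0.0529) or without anti-ITGAV library 1 on fibronectin (0.0533). Mpo (-0.13 ± 0.10), Elane (-0.30 ± 0.21), Prtn3 (-0.22 ± 0.18), S100a8 (-0.17 ± 0.20) and Csf3r (0.07 ± 0.09) did not pass. Without the third anti-ITGAV library on fibronectin S100a8 changed by -0.48 ± 0.06 (edgeR adjusted p 0.00175), Mpo was at -0.06, Elane at -0.17 and Prtn3 at -0.10, and 6 of the 22 genes called were members. The 2 single-coating comparisons share no libraries, and the averaged one uses both.

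Whether the antibody acted differently on the 2 coatings was tested by the interaction, in which 0 genes were called by edgeR, against 614 genes (3.97%) at an unadjusted p under 0.05 and 1 by DESeq2. The log2 interaction was -0.46 ± 0.16 for Ltf, -0.37 ± 0.15 for Lcn2, -0.58 ± 0.26 for Camp, -0.46 ± 0.20 for Mpo and -0.79 ± 0.35 for Prtn3, each with an adjusted p of 0.646. Without the third anti-ITGAV library on fibronectin they were -0.45, -0.36, -0.45, -0.31 and -0.55, each with an adjusted p of 0.845, and S100a8 was -0.36, against 0.26 with it. With all libraries, these 5 members were lower at an unadjusted p under 0.05, against 1.82% of all genes. The difference between the coatings therefore did not hold up after adjustment.

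The ratio of primary to secondary granule transcripts was higher with the antibody on both coatings, apart from the third library. The summed FPKM of Mpo, Elane and Prtn3 was 17.0%, 17.9%, 5.02% and 17.4% of that of Ltf, Lcn2, Ngp and Camp with anti-ITGAV on fibronectin, against 10.7%, 11.5%, 11.2% and 9.29% with IgG on fibronectin. On uncoated dishes it was 18.7%, 16.6%, 16.3% and 20.2% with anti-ITGAV, against 12.0%, 12.7%, 11.7% and 11.9% with IgG. The groups did not overlap on uncoated dishes, and on fibronectin 3 anti-ITGAV libraries lay above all IgG libraries and the third below them. The mean log2 ratio differed by 0.57 on uncoated dishes and by 0.26 on fibronectin, or 0.71 without the third library. No test was made, because the members were chosen with these data known. Ngp makes up most of the secondary sum, and with Ngp left out the differences were 0.55 on uncoated dishes and 0.38 on fibronectin.

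**Figure D3:**
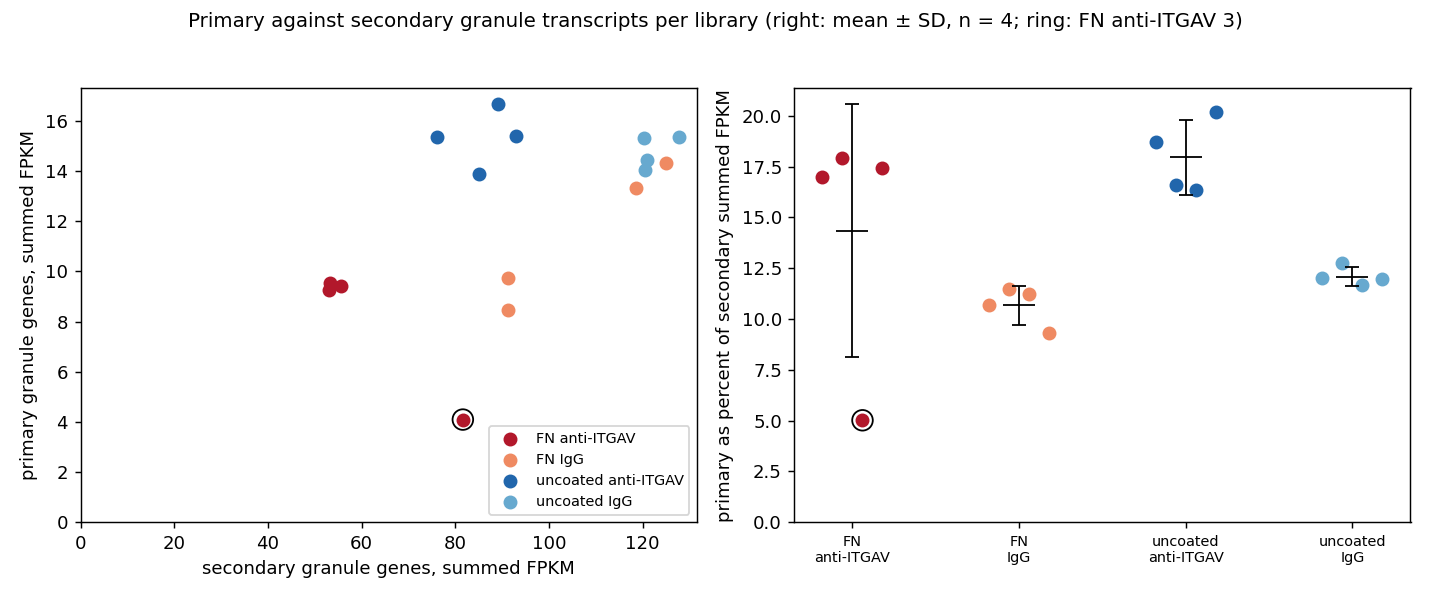
Left, summed FPKM of the 4 secondary granule genes (x axis) against that of the 3 primary granule genes (y axis), 1 point per library. Right, the primary sum as a percent of the secondary sum by group, with mean and SD (n = 4) and the third anti-ITGAV library on fibronectin ringed at 5.02%. The other 3 libraries of that group lie at 17.0% to 17.9% and the IgG libraries on fibronectin at 9.29% to 11.5%.

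Fibronectin against uncoated dishes gave lower Csf3r, the member with the smallest p under either antibody. Under anti-ITGAV, Csf3r had 28.01, 28.9, 19.9 and 27.5 CPM on fibronectin, against 48.7, 41.3, 43.8 and 46.2 CPM on uncoated dishes. Under IgG it had 23.4, 25.1, 30.9 and 21.7 CPM on fibronectin, against 48.0, 40.4, 38.9 and 40.5 CPM on uncoated dishes. Neither pair of groups overlapped, and the log2 change was -0.79 ± 0.13 under anti-ITGAV (edgeR adjusted p 0.00208) and -0.73 ± 0.13 under IgG (0.00366). Csf3r was called in all 16 fits that left out 1 library and under all 14 other settings in both comparisons.

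Under anti-ITGAV, 7 of 10 members were called lower on fibronectin by edgeR, against 2.83% of all genes. Besides Csf3r these were Ltf (-0.55 ± 0.11), Lcn2 (-0.58 ± 0.11), Camp (-0.82 ± 0.19), Mpo (-0.74 ± 0.15), Prtn3 (-1.01 ± 0.25) and S100a9 (-0.44 ± 0.11). Mpo, for example, had 9.85, 10.6, 6.22 and 9.81 CPM on fibronectin, against 16.02, 15.1, 15.2 and 14.6 CPM on uncoated dishes, without overlap. The groups did not overlap, in the lower direction, for 8 of 10 members, against 7.53% of all genes. Elane reached -1.003 ± 0.30 with an adjusted p of 0.0577, Ngp -0.44 ± 0.17 with 0.138 and S100a8 -0.02 ± 0.28 with 0.974. Without the third anti-ITGAV library on fibronectin, Ngp changed by -0.71 (edgeR adjusted p 0.000675), S100a8 by -0.64 (0.000689), Mpo by -0.60 (0.00293) and Prtn3 by -0.77 (0.0210). Of the 972 genes then called in either direction, 9 were members. Calls were lost for Prtn3 without the first (0.0677) or second (0.0633) uncoated anti-ITGAV library or the fourth on fibronectin (0.0671), and for Camp without the first uncoated one (0.0512). With the compared groups alone 251 genes were called, and 3 of them were members: Ltf (edgeR adjusted p 0.0258), Lcn2 (0.0360) and Csf3r. Mpo was not called in that setting (-0.75, edgeR adjusted p 0.0544). With the GC offset and replicate block 4 were called, and Elane was gained among them (-0.91, edgeR adjusted p 0.0125). Ltf (-0.55, 0.0783), Lcn2 (-0.49, 0.182), Camp (-0.73, 0.0693) and Mpo (-0.64, 0.0579) were not called there. S100a9 was lost in 5 fits without 1 library, with adjusted p from 0.0556 to 0.105, and Elane was gained without IgG library 4 (0.0369) or anti-ITGAV library 4 (0.0475) on fibronectin.

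Under IgG, Csf3r was the 1 member called lower on fibronectin, against 1.42% of all genes. The groups did not overlap, in the lower direction, for 2 members, S100a8 and Csf3r, against 5.26% of all genes. The other 9 had log2 changes from -0.50 (Elane) to -0.09 (Ltf), and their adjusted p ranged upward from 0.278, for S100a9. The comparisons under anti-ITGAV and under IgG share no libraries, but each shares its libraries with the antibody comparisons. A low anti-ITGAV group on fibronectin therefore enters the coating comparison under anti-ITGAV and the antibody comparison on fibronectin, but not the coating comparison under IgG.

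**Figure D4:**
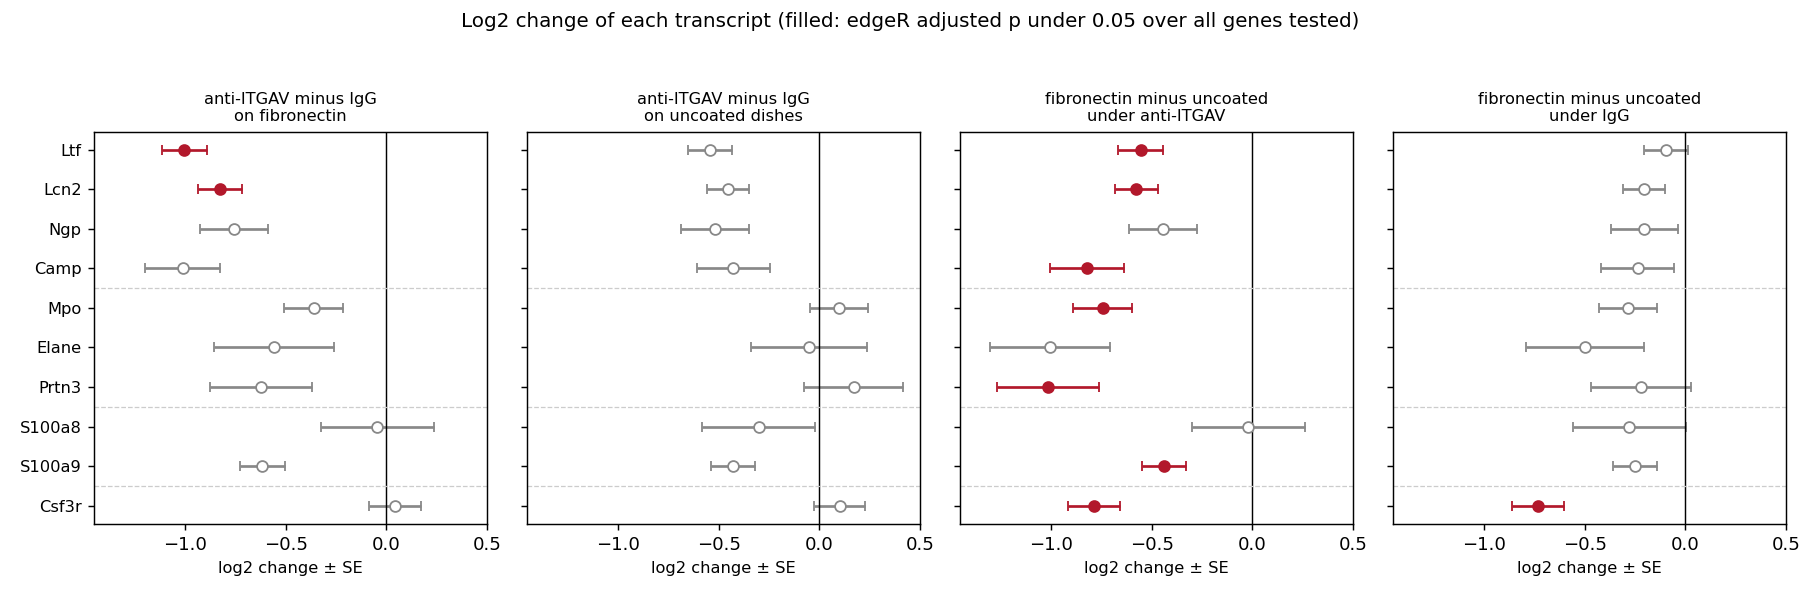
Log2 change with its SE (x axis) of each member (rows, grouped as secondary granule, primary granule, cytosolic and receptor) in 4 comparisons. Filled red points are those with an edgeR adjusted p under 0.05 over all genes tested: Ltf and Lcn2 for the antibody on fibronectin, none for the antibody on uncoated dishes, 7 members for fibronectin under anti-ITGAV and Csf3r for fibronectin under IgG.

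Other genes listed for neutrophil granules or late neutrophils gave mixed values under the antibody. Their levels differed widely: Ctsg averaged 3.19 CPM and Cd177 4.83, against 36.1 for Mmp8, 112 for Srgn and 769 for Ctsc. Which cells of the culture held these transcripts was not tested. Of 6 further primary granule genes tested, 0 were called by edgeR on either coating. Ctsg, the cathepsin G gene, changed by -0.81 ± 0.16 on fibronectin (edgeR adjusted p 0.176). Averaged over coatings it was at -0.60 ± 0.11 (edgeR adjusted p 0.0517). Srgn, the granule proteoglycan serglycin, was at 0.44 ± 0.18 on fibronectin. It had 59.6 ± 22.2 FPKM (SD) with anti-ITGAV there, against 43.7 ± 4.82 with IgG. On fibronectin 2 of these 6 genes had a lower value, against 49.98% of all genes, and on uncoated dishes 4 did, against 46.8%. Of those 4, Ctsg (-0.39 ± 0.16) and Serpinb1a (-0.47 ± 0.17) were lower on uncoated dishes at an unadjusted p under 0.05, against 1.21% of all genes. Of 6 further secondary granule genes, 0 were called on either coating. On fibronectin 5 of the 6 had a lower value, against 49.98% of all genes. There Cd177, a neutrophil surface antigen, was at -0.81 ± 0.16 (edgeR adjusted p 0.176), Wfdc21 at -0.68 ± 0.33 and Mmp8, the neutrophil collagenase, at 0.42 ± 0.16. On uncoated dishes 6 of 6 had a lower value, against 46.8% of all genes. Olfm4 (-1.51 ± 0.45, at a mean of 0.79 CPM) and Chil3 (-0.34 ± 0.13) were lower there at an unadjusted p under 0.05, against 1.21%. Of 17 tested late neutrophil genes, 14 had a lower value on fibronectin and 0 were called, with 6 lower at an unadjusted p under 0.05. Over all genes 49.98% had a lower value and 2.06% were lower at that p. The smallest p values were those of Hdc (-0.67 ± 0.24), Pglyrp1 (-0.44 ± 0.16), Retnlg (-0.38 ± 0.14) and Padi4 (-0.28 ± 0.12).

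Calls by the coating among these genes went in both directions. Under anti-ITGAV, 3 of 17 late neutrophil genes were lower on fibronectin by edgeR (Pglyrp1, Mxd1 and Hdc), against 2.83% of all genes. A further 3 were higher (Trem1, Fpr1 and Fpr2), and Ctsg (-0.74) and Cd177 (-0.60) were called lower. Under IgG, Pglyrp1 was called lower, against 1.42% of all genes, and Trem1 higher, at -0.72 and 1.15. The share of all genes called higher is not given here. With each library left out in turn, 428 to 1037 genes were called in either direction under anti-ITGAV and 253 to 1325 under IgG. Trem1, an amplifier of inflammatory signalling, changed by 1.38 ± 0.23 under anti-ITGAV.

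The regulators of granulocyte genes did not pass the test under the antibody. Of 8 tested, 0 were called by edgeR in any comparison of antibody or coating. Cebpe, which encodes C/EBPε, was at -0.72 ± 0.37 on fibronectin and Spi1, which encodes PU.1, at -0.25 ± 0.16. With anti-ITGAV on fibronectin Cebpe averaged 1.61 ± 0.918 FPKM (SD), against 2.62 ± 0.587 with IgG. Spi1 averaged 107.6 ± 28.7 FPKM against 126.7 ± 14.5. On uncoated dishes the log2 changes were -0.21 ± 0.37 for Cebpe and 0.11 ± 0.16 for Spi1. Csf3, the gene for G-CSF, did not pass the filter on low counts. Itgav itself, whose protein the antibody blocks, was at 0.25 ± 0.16 with the antibody on fibronectin (edgeR adjusted p 0.721) and at -0.07 on uncoated dishes. An antibody acts on the protein, so the transcript does not check the treatment.

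Markers of other cells that could be in such a culture moved with some of these results. The 8 genes of mast cells, basophils and eosinophils summed to a median of 11.1 CPM (9.82 to 12.9) with anti-ITGAV on fibronectin, against 16.9 (14.7 to 19.1) with IgG on fibronectin, and to 21.8 (20.4 to 27.8) with anti-ITGAV on uncoated dishes, against 30.6 (28.7 to 35.9) with IgG. None of its 8 genes was at 0 in all 16 libraries. The 8 B lymphocyte genes summed to 36.5 CPM (30.5 to 36.5) on fibronectin with anti-ITGAV and 38.4 (31.6 to 44.9) with IgG, against 75.5 (70.3 to 80.4) and 70.6 (61.3 to 79.4) on uncoated dishes, and their ranges overlapped between the antibodies on each dish but not between dishes. The 5 fibroblast genes summed to 4.83 to 7.97 CPM with anti-ITGAV on fibronectin, 7.39 to 8.31 with IgG on fibronectin, 10.4 to 12.3 with anti-ITGAV on uncoated dishes and 12.1 to 14.9 with IgG on uncoated dishes. Of 8 monocyte and 6 tested progenitor genes, 0 were called under the antibody on either coating by edgeR. Erythroid and T and NK lymphocyte markers were below 1 CPM in sum in every library. The part of these cells in the results was not tested. The macrophage genes themselves had a median log2 change of 0.02 on fibronectin and 0.07 on uncoated dishes under the antibody, with 0 of 15 called.

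Some members varied together between libraries of 1 group. After group means were removed from log2 CPM, 4 of 45 pairs had an adjusted p under 0.05 over 16 libraries, by 100000 permutations within groups with adjustment over the 45 pairs. Camp and Prtn3 had a Pearson r of 0.87 and a Spearman rho of 0.85 (permutation adjusted p 0.0193 and 0.0539). Camp and Mpo had r 0.79 and rho 0.77, Ltf and Camp 0.71 and 0.78, and S100a8 and S100a9 0.78 and 0.78, each with a permutation adjusted p of 0.0193 for r. Without the 2 libraries farthest from the median of the first gene, r was 0.81, 0.63, 0.67 and 0.59. With 1 library left out at a time, 0 to 8 pairs passed. The count was 0 without the third anti-ITGAV library on fibronectin and 2 without library 1 or library 2 of that group. It was 1 without uncoated IgG library 3 and 2 without uncoated anti-ITGAV library 1. It was 8 without uncoated anti-ITGAV library 2, and 7 without library 4 of either anti-ITGAV group. Without the third anti-ITGAV library on fibronectin, r within the secondary granule genes then had a median of 0.72 (0.58 to 0.88) against 0.47 with it. Pairs of a primary with a secondary granule gene then had r from 0.37 (Lcn2 and Mpo) to 0.84 (Camp and Prtn3). Within the primary granule genes r was then 0.31 (Mpo and Elane), 0.51 (Mpo and Prtn3) and 0.53 (Elane and Prtn3), against 0.77 to 0.83 with it. Of 10889 candidate genes, the ones most like Ltf in this measure were Angptl4 (r 0.89), Sash3 (0.89), Vsp35l (0.87), Tprgl (0.87) and Trappc12 (0.87). Those most like Mpo were Acsf3, Rab40c, Fbxw8, Zfp64 and Prkcsh (0.97 each), transcripts of 55.9% to 58.2% GC.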

How the data were processed

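RNA of 16 macrophage libraries was sequenced as polyA-selected, paired-end libraries, per the labels' protocols. The authors deposited whole-number counts per gene for 54532 genes and their FPKM values. Per the submitters' processing notes, the tools were HISAT2, featureCounts and StringTie, with mm10 and GRCm38.p6 as builds. For tool versions, roles, strand setting and multi-gene reads, nothing was given in the sources used here. FPKM deposited by the authors follow from the counts and gene lengths with a scale of 0.989 to 1.04 times a library's total, so they add nothing to the counts.

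The counts were tested in R 4.3.3 with edgeR 4.0.16; limma 3.58.1 and DESeq2 1.42.0 served for alternatives, and figures were drawn with matplotlib 3.10.9 in Python 3.11.15. Genes were kept by filterByExpr (minimum count 10), TMM factors were applied, and the robust quasi-likelihood fit had 1 mean per group over all 16 libraries. Tests used Benjamini-Hochberg adjustment over 15469 genes and a threshold of 0.05. CPM values of single genes use TMM-scaled totals, and sums over marker lists use library totals. Intervals are 95%, and log2 changes are the anti-ITGAV value over IgG or fibronectin over uncoated. GC content came from GENCODE transcripts and was known for 15457 genes tested. The GC offset was a smooth trend per library. Total counts were 27995000 to 43413600, so 3 counts, the limit a count of 0 allows, are 0.0691 to 0.107 CPM, for counting error only.

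The members and lists were chosen with earlier results of these data known. All 10 members and Itgav are named, up to 4 genes of other lists by their p for the antibody on fibronectin, and, for likeness, 5 protein-coding genes of at least 1 CPM each for Ltf and Mpo. Genes called by the coating, Prss34, Serpinb1a and Chil3 were named after their values were seen. No pair of libraries of a group was a repeat deposit, with a chi-square per degree of freedom of 5.40 to 207. The script was tested on simulated counts. Settings tried were other scaling factors and filters, a replicate block, a GC offset, voom with quality weights, limma on log2(FPKM + 1) and log2(FPKM + 0.1), the compared groups alone, and each library left out; the GC offset without the third anti-ITGAV library on fibronectin was chosen after seeing the data.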

Additional observations from a re-analysis of the deposited data

Results flagged for a closer look

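In 44 groups of 4 libraries (10 members and the primary to secondary percentage, in 4 groups each), 6 had a lone library whose gap to the others, as a share of the group's range, was above Dixon's 95% critical value, where chance flags about 1 in 20. In the anti-ITGAV group on fibronectin, 4 of these were the third library: S100a8 at 141 CPM and Ngp at 79.3 CPM were high, and Csf3r at 19.9 CPM and the primary sum as a percent of the secondary sum, 5.02%, were low. This is the library with 3.67% mitochondrial counts and a rank correlation of -0.69 with GC content, and their part in these values was not tested. In the IgG group on fibronectin, S100a8 in the fourth library was low at 59.1 CPM. In the IgG group on uncoated dishes, Ltf in the third library was low at 61.1 CPM.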

How the results depend on the processing

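For single members, 1655 values kept their direction and side of the threshold, 55 gained a call, 45 lost one and 25 reversed. Counts of calls differed between settings. DESeq2 called 16 genes (5 members) for the antibody on fibronectin, 16 (2 members) on uncoated dishes, 43 averaged, 975 for fibronectin under IgG, 1509 under anti-ITGAV and 1 for the interaction. Voom with quality weights called 6 genes (4 members), 109 (4 members), 108, 2481 (9 members) and 2173 in the first 5 of these. The compared groups alone gave 0 genes and 0 members for the antibody on fibronectin, 2 members on uncoated dishes, and 251 genes and 3 members for fibronectin under anti-ITGAV. No filter on low counts gave 4 genes for the antibody on fibronectin. With log2(FPKM + 1) and no filter there were 4 genes for the antibody on fibronectin, 1 on uncoated dishes, 309 for fibronectin under IgG and 510 under anti-ITGAV. The GC offset gave 11 genes for the antibody on fibronectin, 7 on uncoated dishes, 22 averaged, 489 for fibronectin under anti-ITGAV and 1 for the interaction. The GC offset without the third anti-ITGAV library on fibronectin, chosen after seeing the data, gave 7 genes for the antibody on uncoated dishes, 19 averaged, 2 members for fibronectin under IgG, 333 genes under anti-ITGAV and 2 for the interaction. Without centring, 28 pairs of members correlated. The cause of these differences was not tested.

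Libraries shared only a replicate number: 4 of 24 same-numbered pairs correlated above 0.1 (r -0.30 to 0.28) and 5 of 16 libraries matched their own number best. The replicate block gave 0 genes for the antibody on uncoated dishes and 360 for fibronectin under IgG. The block with the GC offset gave 1 member for the antibody on fibronectin, 303 genes for fibronectin under IgG, 336 genes and 4 members under anti-ITGAV, and 1 gene for the interaction.

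Leaving out each library in turn gave 1 to 5 genes and 1 to 5 members for the antibody on fibronectin, 0 to 2 genes and 0 members on uncoated dishes, 4 to 22 genes and 2 to 6 members averaged, 253 to 1325 genes and 1 member for fibronectin under IgG, 428 to 1037 genes and 5 to 9 members under anti-ITGAV, 0 for the interaction and 0 to 8 correlated pairs, where leaving out libraries other than the third anti-ITGAV one on fibronectin was added for the pairs after seeing the data. The log2 difference of the primary to secondary ratio ran from 0.10 to 0.71 on fibronectin and from 0.51 to 0.61 on uncoated dishes.

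Reversed values were small in most cases. For the antibody on fibronectin, Elane was 0.021 with voom, Csf3r was -0.024 without IgG library 4 and -0.01 without the second anti-ITGAV library, and S100a8 was 0.11, 0.13 and 0.14 without anti-ITGAV library 1, 2 and 4 (-0.66 to 0.14 over all libraries left out). On uncoated dishes, Mpo was -0.000898 with the GC offset and -0.000428 with the offset and the third library left out, and Elane was 0.0014 without the third anti-ITGAV library (-0.11 to 0.0014). For fibronectin under anti-ITGAV, S100a8 was 0.03 without the second uncoated library and 0.12, 0.14 and 0.15 without library 1, 2 and 4 on fibronectin (-0.64 to 0.15). In the interaction, S100a8 was -0.018 with the GC offset, -0.037 with offset and block, -0.29 with voom, -0.36 without the third anti-ITGAV library on fibronectin and -0.53 with the offset and without that library (-0.36 to 0.45 over the libraries left out). Csf3r was 0.22, 0.23, 0.16, 0.05 and 0.20 under the same 5 settings and 0.053 without the third IgG library on fibronectin (-0.13 to 0.053), and Elane was 0.15 with voom. The cause was not tested.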

Other observations

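The 12 genes with the smallest p for the antibody on fibronectin held 4 members, Ltf, Lcn2, S100a9 and Camp. They also held Prss34 (log2 change -0.91 ± 0.16), Cd177 and Ctsg, named above, and Itgb2l (-1.21 ± 0.26, edgeR adjusted p 0.247), an integrin subunit gene of granulocytes. Itgb2l and the 3 genes with higher values among them, Cytip (0.68), Fos (0.55) and Plk2 (0.46), were chosen after their values were seen, and none of these passed edgeR's adjusted threshold in that comparison.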
